A study of Mus musculus with 6 samples.

Results

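The 8 genes S100a8, S100a9, Lcn2, Retnlg, Hp, Csf3r, Il1r2 and Il1b, products of neutrophils and alarmins, were followed in mouse left ventricle under pressure overload. They were taken by gene name from a table of 54532 genes and were selected on their measured values in these same libraries, so every level and fold change of theirs is a description without a test. The libraries came from 3 HINT2 transgenic (TG) and 3 non-transgenic (NTG) hearts, and the question put by the design was what HINT2, a mitochondrial nucleotide hydrolase, changes in the banded heart. TG mice had the genotype HINT2CTG-Myh6Cre. In them tamoxifen-activated Cre under the cardiomyocyte promoter of Myh6 switched on HINT2 driven by the CAG promoter, so the transgene was driven in cardiomyocytes. NTG mice were labelled C57BL/6J, and neither Cre nor tamoxifen is named for them. All were male, 8 to 10 weeks old at surgery, underwent aortic banding (AB) and gave tissue 4 weeks later. No library from sham-operated hearts was analysed here.

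Neutrophils are short-lived granulocytes that leave the bone marrow under granulocyte colony-stimulating factor (G-CSF) and enter injured tissue. They make their granule proteins in successive waves in the marrow, beginning with the azurophil granules, whose transcripts are few or absent in circulating cells, while S100a8 and S100a9, which encode cytosolic proteins, remain abundant there. Alarmins are proteins released by stressed or dying cells that alert innate immunity through pattern recognition receptors. In bulk tissue, fewer cells of a type and less RNA per cell cannot be told apart.

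S100a8 and S100a9 lie side by side on chromosome 3, with 22596 bases and 0 annotated genes between them, at chr3:90668978-90670035 on the plus strand and chr3:90692632-90695721 on the minus strand (GRCm38, as in the table). Their promoters and that of Retnlg are shown because these 3 genes had Pearson correlations of 0.983 to 0.995 over the 6 libraries. Without the library NTG 2 these were 0.969 to 0.992. Csf3r, whose promoter is not shown, was as close over the 6 libraries, at 0.990 with S100a8 and 0.985 with S100a9. The promoter of Il1b is shown because Il1b was the member least altered between the groups. The windows run from 250 bases before to 50 after the RefSeq start (GRCm38.p6), 5′ to 3′ on the strand of the gene. They are chr3:90668821-90669120 (plus) for S100a8, chr3:90695672-90695971 (minus) for S100a9, chr16:48872358-48872657 (plus) for Retnlg and chr2:129371090-129371389 (minus) for Il1b. Capitals mark matches to the TATA box, the C/EBP half-site pair TTGCNNAA and the PU.1 core GAGGAA, the last 2 being motifs of regulators of granulocyte genes.
S100a8: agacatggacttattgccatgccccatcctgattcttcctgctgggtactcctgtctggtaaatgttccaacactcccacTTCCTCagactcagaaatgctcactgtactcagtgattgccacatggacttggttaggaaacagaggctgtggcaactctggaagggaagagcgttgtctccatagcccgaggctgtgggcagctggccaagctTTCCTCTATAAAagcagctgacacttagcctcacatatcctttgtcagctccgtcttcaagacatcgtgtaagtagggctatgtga
S100a9: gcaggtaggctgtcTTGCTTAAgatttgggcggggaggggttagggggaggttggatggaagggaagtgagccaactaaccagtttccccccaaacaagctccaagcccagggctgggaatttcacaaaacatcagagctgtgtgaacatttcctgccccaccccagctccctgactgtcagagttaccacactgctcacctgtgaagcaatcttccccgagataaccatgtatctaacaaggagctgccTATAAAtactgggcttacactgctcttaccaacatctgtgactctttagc
Retnlg: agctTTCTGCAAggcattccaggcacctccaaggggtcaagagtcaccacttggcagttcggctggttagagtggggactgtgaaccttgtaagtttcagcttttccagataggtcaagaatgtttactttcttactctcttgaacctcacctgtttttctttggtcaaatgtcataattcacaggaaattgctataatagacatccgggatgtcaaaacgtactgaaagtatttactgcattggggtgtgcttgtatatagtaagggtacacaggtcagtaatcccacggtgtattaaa
Il1b: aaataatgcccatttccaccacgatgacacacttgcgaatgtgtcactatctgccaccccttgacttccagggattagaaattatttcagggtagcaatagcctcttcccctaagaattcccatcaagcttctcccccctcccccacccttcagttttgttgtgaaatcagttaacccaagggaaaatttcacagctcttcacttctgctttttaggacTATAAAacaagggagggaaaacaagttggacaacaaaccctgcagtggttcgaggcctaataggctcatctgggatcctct

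Both strands were searched for every motif, and windows of 7 members were found in the RefSeq table, which held 32851 promoters. TATAAA occurred in S100a8 at -30, in S100a9 at 0 and in Il1b at -31, counted in bases from the annotated start. It was present in 3 of the 7 windows and in 13.6% of all promoters. TTGCNNAA occurred in S100a9 (-236), Retnlg (-246) and Lcn2 (-216), against 10.8% of all promoters. GAGGAA occurred in S100a8 at -170 and -36, in Lcn2 and in Csf3r, against 28.3% of all promoters, and its second match in S100a8 abutted the TATA box without sharing a base. GGGNNTTCC, a form of the NF-kB site (5.82% of promoters), and TGANTCA, the AP-1 site (7.81%), had 0 matches in the 7 windows. The STAT form TTCNNNGAA (8.3%) had 1, in Il1r2. Motif letters may overlap one another, and a match describes the sequence only.

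The NTG libraries totalled 14863568 to 17581220 counts and the TG libraries 14944465 to 17235802, of which genes of the mitochondrial genome took 13.44% to 19.17% and 15.95% to 21.45%. Hint2, the targeted gene, had 12, 545 and 559 counts in NTG 1, 2 and 3 and 793, 828 and 859 in TG 1, 2 and 3, so the library labelled NTG 1 went against the other NTG libraries and is named that way below. No gene passed edgeR's quasi-likelihood test at an adjusted p under 0.05 with a log2 fold change over 0.5 in size (0% of 14774 tested, smallest adjusted p 0.196). At an unadjusted p under 0.05, 1442 genes were lower and 1305 higher in TG, and DESeq2 called 355 lower and 228 higher. The labels do not say whether the replicates came from separate animals, whereas the methods give 3 mice per genotype.

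All 8 members were highest in the library NTG 2, by 2.34-fold to 8.87-fold over the next library in counts scaled to library size (CPM, TMM-normalized). NTG 2 was the highest library for 27.1% of all genes tested, and by at least 2-fold over the next for 184 genes, or 1.25%. The corresponding number with a 2-fold lead was 3 to 82 genes for each other library, TG 3 having the 82. Fitted log2 fold changes (TG over NTG) were negative for all 8 members, with a median of -2.60, against a median of -0.01 over all genes tested. Below zero lay 51.3% of all genes, and below -0.5, as did all 8 members, lay 10.2%. Without NTG 2 the members' median was -0.97, with 7 negative and 1 positive, and without the library labelled NTG 1 it was -3.07, with all 8 negative, from -4.67 for Retnlg to -1.07 for Il1b.

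**Figure D1:**
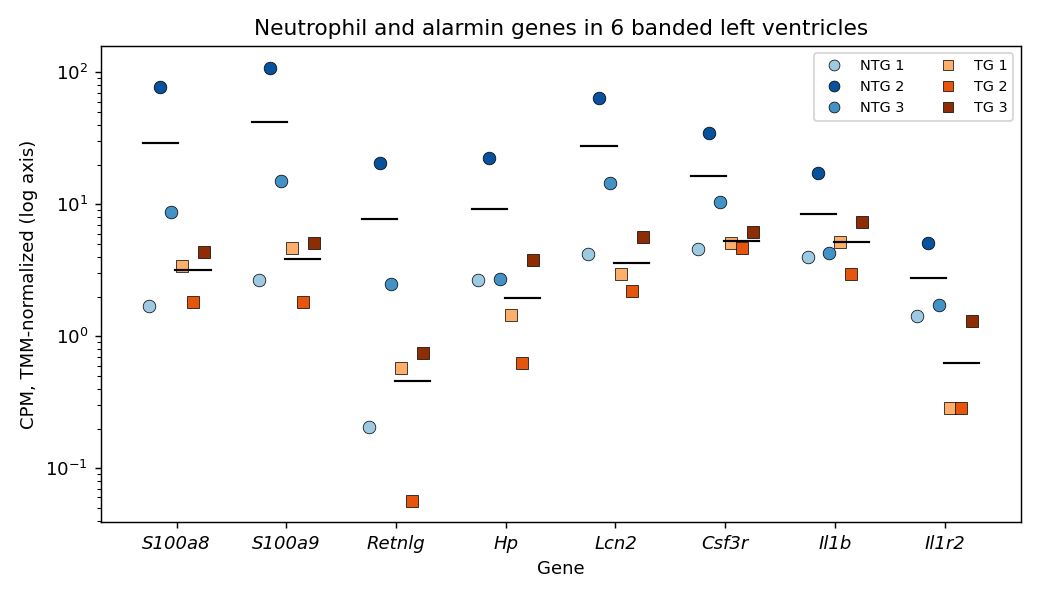
CPM (TMM-normalized, log axis) of the 8 genes in each library, with circles for the 3 NTG and squares for the 3 TG libraries and a bar at each group's mean. NTG 2 is the top point for every gene, and the other 5 libraries of both groups interleave except for Il1r2.

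S100a8 encodes the smaller subunit of calprotectin, the calcium- and zinc-binding alarmin that fills the neutrophil cytosol and acts on Toll-like receptor 4. Its counts were 25, 1450 and 150 in NTG 1, 2 and 3 and 47, 32 and 71 in TG 1, 2 and 3. In CPM these were 1.71, 77.0 and 8.68 against 3.39, 1.82 and 4.38, or 29.1 ± 41.6 (SD, n = 3) in NTG and 3.20 ± 1.29 in TG. NTG 2 was 8.87-fold above NTG 3, the next highest, while the library labelled NTG 1 was the lowest of the 6, so the groups overlapped. NTG 2 alone held 81.7% of all S100a8 counts. The fitted log2 fold change was -3.20 (SE 1.28), -0.72 without NTG 2 and -3.76 if the library labelled NTG 1 was left out.

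S100a9, the larger calprotectin subunit, gave 39, 2046 and 260 counts in NTG and 65, 32 and 82 in TG, replicates being listed from 1 to 3 here and below. Its CPM were 2.66, 109 and 15.04 in NTG and 4.69, 1.82 and 5.06 in TG, with means of 42.1 ± 57.9 and 3.86 ± 1.77. The order of libraries was that of S100a8 except at the bottom, where TG 2 lay below the library labelled NTG 1. NTG 2 was 7.22-fold above NTG 3 and held 81.1% of the counts. The log2 fold change was -3.47 (SE 1.28), and -1.22 without NTG 2. Per base of gene length S100a9 exceeded S100a8 in every library, by 2.07, 1.88 and 2.30 times in NTG and 1.84, 1.33 and 1.54 times in TG. The ratio of the subunits thus stayed between 1.33 and 2.30 while S100a8 ranged from 1.71 to 77.0 CPM.

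Lcn2 encodes lipocalin 2, also known as neutrophil gelatinase-associated lipocalin, a granule protein that captures bacterial siderophores and is also made by stressed epithelium and cardiomyocytes. Its counts were 62, 1205 and 249 in NTG and 41, 39 and 91 in TG. The CPM were 4.23, 64.0 and 14.4 in NTG against 2.96, 2.22 and 5.62 in TG, or 27.5 ± 32.0 and 3.60 ± 1.79. NTG 2 was 4.44-fold above NTG 3, which in turn was above each TG library, whereas TG 3 exceeded the library labelled NTG 1. Its fitted log2 value was -2.94 (SE 0.98), and -1.38 without NTG 2.

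Retnlg encodes a resistin-like protein made largely by mouse neutrophils and their marrow precursors. It had the fewest counts of the 8 outside NTG 2, with 3, 385 and 43 in NTG and 8, 1 and 12 in TG. It passed the low-count filter with 3 libraries, NTG 2, NTG 3 and TG 3, over the cutoff of 0.595 CPM, where 3 were needed. NTG 2, at 20.5 CPM, was 8.22-fold above NTG 3, at 2.49, and held 85.2% of the counts, the largest share among the members. The group means were 7.71 ± 11.1 CPM in NTG and 0.458 ± 0.357 in TG, and the log2 fold change of -4.10 (SE 1.54) became -1.60 without NTG 2.

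Hp encodes haptoglobin, which binds free haemoglobin and is both an acute phase protein of liver and a neutrophil granule protein. Its counts were 39, 421 and 47 in NTG and 20, 11 and 61 in TG. In CPM, NTG 2 at 22.4 was 5.94-fold above the next library, which was TG 3 at 3.77. The library labelled NTG 1 and NTG 3 had 2.66 and 2.72 CPM, and TG 1 and 2 had 1.44 and 0.625. The groups therefore overlapped through TG 3, with means of 9.25 ± 11.4 in NTG and 1.94 ± 1.63 in TG. The log2 fold change was -2.26 (SE 1.04), and -0.47 without NTG 2.

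Among the receptors, Csf3r, the G-CSF receptor that drives neutrophil production and release, had 67, 649 and 180 counts in NTG and 70, 82 and 100 in TG. Its 3 TG libraries were the closest of any member, at 5.05, 4.66 and 6.17 CPM (mean 5.29 ± 0.785). In NTG it had 4.57, 34.5 and 10.4 CPM (16.5 ± 15.8), with NTG 2 3.31-fold above NTG 3 and the library labelled NTG 1 below every TG library. The log2 fold change was -1.65 (SE 0.69), and -0.51 without NTG 2.

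Il1r2 encodes the decoy receptor that binds interleukin-1 without signalling and is carried by neutrophils and some macrophages. It had 21, 96 and 30 counts in NTG and 4, 5 and 21 in TG. The CPM were 1.43, 5.10 and 1.74 in NTG and 0.289, 0.284 and 1.296 in TG, so every TG library lay under every NTG library. It was the 1 member of 8 for which the groups did not overlap, and 12.3% of all genes tested lay that way. NTG 2 was 2.94-fold above NTG 3, TG 3 was close to the library labelled NTG 1, and TG 1 and TG 2 stood apart at the bottom. The log2 fold change was -2.14 (SE 0.73), -1.33 without NTG 2 and -3.25 without TG 3.

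Il1b encodes interleukin-1 beta, the cytokine that inflammasome cleavage activates in monocytes, macrophages and neutrophils. Its counts were 58, 324 and 74 in NTG and 72, 52 and 119 in TG. The CPM were 3.96, 17.2 and 4.28 in NTG against 5.19, 2.96 and 7.35 in TG, or 8.48 ± 7.56 and 5.17 ± 2.19. NTG 2 was 2.34-fold above TG 3, the next highest, and both other NTG libraries lay within the range of TG. The log2 fold change was -0.73 (SE 0.64), the smallest of the 8, and was 0.32 without NTG 2. It was the only member whose sign changed when any 1 library was left out.

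**Figure D2:**
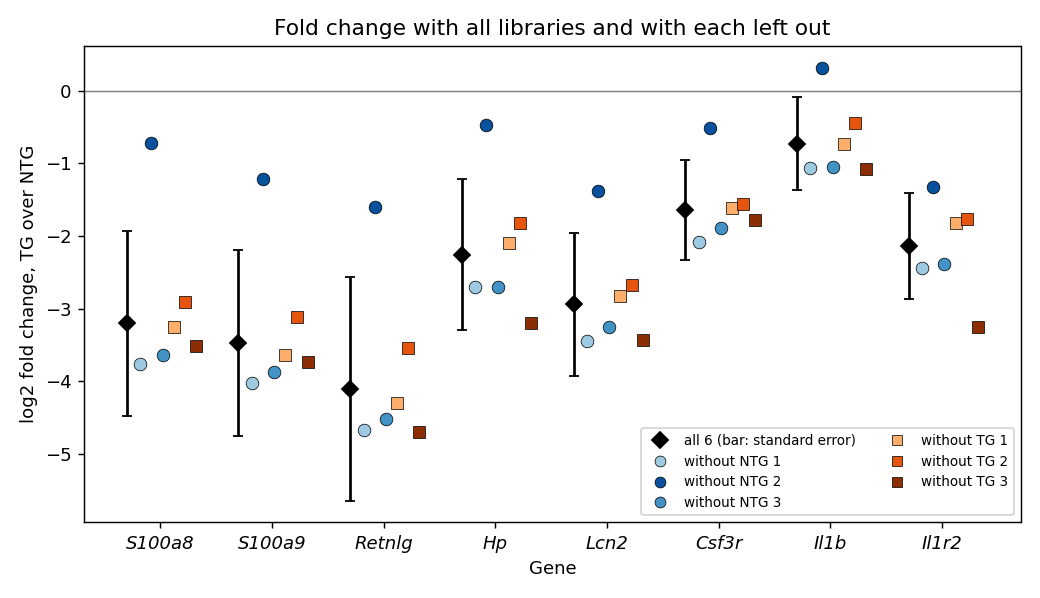
Fitted log2 fold change (TG over NTG) of each gene with all 6 libraries (diamond, bar = standard error) and with each library left out in turn (circle or square in the colour of the library left out). Leaving out NTG 2 gives the value nearest to or above zero for every gene, from -1.60 for Retnlg to 0.32 for Il1b, and TG 3 moves Il1r2 to -3.25.

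At an unadjusted p under 0.05, 5 of the 8 were lower in TG, where 9.76% of all genes were, and 0 were higher, where 8.83% of all genes were. The number lower was 0 without NTG 2 and without TG 2, 1 without TG 1, 5 without TG 3, 6 without the library labelled NTG 1 and 7 without NTG 3. DESeq2 called 0 of the 8, against 2.4% of all genes called lower. Since the same contrast chose the members, nothing is read from these counts.

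In levels per kilobase, the order in the mean of the NTG libraries was S100a9 (80.7 CPM per kb), S100a8 (42.0), Retnlg (13.01), Lcn2 (10.5), Hp (5.76), Csf3r (4.57), Il1b (4.45) and Il1r2 (1.44). The SD exceeded the mean for S100a8, S100a9, Retnlg, Hp and Lcn2, and no neighbours in this order differed beyond their SD between hearts. Within each library, however, S100a9 was above S100a8 by 1.33 to 2.30 times per base. Il1b was likewise above Il1r2, by 2.47 to 18 times. In TG, S100a9 (7.39) and S100a8 (4.61) were again first, followed by Il1b (2.71), Csf3r (1.47), Lcn2 (1.37), Hp (1.21), Retnlg (0.773) and Il1r2 (0.327). The place of Retnlg in the NTG order rests on NTG 2, where it had 34.5 against 24.4 for Lcn2, while it was behind Lcn2 in both other NTG libraries. Csf3r, Lcn2 and Hp changed their order between TG libraries, and Retnlg was above Hp in TG 1 and below Il1r2 in TG 2, so the places of these genes there are not resolved.

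On the log2 CPM scale the 28 pairs of members had Pearson correlations of 0.743 to 0.995 over the 6 libraries, with a median of 0.907. These points share their libraries and depth, and NTG 2 is the top point in each pair. Over the 5 libraries without NTG 2 the range was 0.221 to 0.992 and the median 0.673. S100a8, S100a9 and Retnlg correlated at 0.983 to 0.995, and at 0.969 to 0.992 without NTG 2. Csf3r kept 0.942 or 0.943 with the S100 pair without NTG 2, and Lcn2 0.850 and 0.907. Il1b was apart, at 0.408 with S100a9 and 0.221 with Csf3r, and its closest partner there was Hp at 0.729. Hp and Il1r2 had 0.869.

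The genes outside the list that most resembled the members' mean profile over the 6 libraries, by Pearson correlation of log2 CPM with the mean of the scaled member values, were Pik3cg (r = 0.999), Slc35d2 (0.997), Amn1 (0.996), Tlr7 (0.995), Clec4a2 (0.990), Rab34, Trim30b, Rps26, Rgs4 and Cd300lb (0.987). In all, 122 genes reached 0.95. The likeness was one of order and shape, since the lead of NTG 2 over the next library was 1.77-fold for Pik3cg, 1.80-fold for Tlr7 and 1.25-fold for Rps26. Trim30b, with 3.40 CPM in NTG 2 and 0.984 in NTG 3, had the largest lead of these 10, at 3.46-fold. Pik3cg encodes the leukocyte isoform of phosphoinositide 3-kinase, and Tlr7 the endosomal receptor for single-stranded RNA.

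Of the neutrophil genes with at least 10 counts, 6 of 11 granule genes and 14 of 19 surface genes, members left out, had over 50% of their counts in NTG 2, against 1.18% of all such genes. The defining markers are given first, and Padi4 (28.6% of counts in NTG 2), Lyz2 (31.4%), Selplg (32.8%) and Hdc (26.0%) were among those below that share. Ly6g, the surface antigen that defines mouse neutrophils, had 0, 17 and 1 counts in NTG and 0, 0 and 1 in TG. Ngp, a secondary granule protein, had 2, 231 and 15 counts in NTG and 1, 0 and 0 in TG. Camp, the cathelicidin precursor, had 2, 37 and 3 against 0, 0 and 0, and Ltf, lactoferrin, had 2, 148 and 9 against 2, 5 and 7. These 3 secondary granule genes had NTG 2 first and NTG 3 next. Of the azurophil genes, Mpo, the myeloperoxidase gene, had 1 count in NTG 2 and 1 in TG 3. Elane had 0 in all 6 libraries, Ctsg 1 count in TG 1 alone, and Prtn3 0, 0 and 4 against 2, 2 and 2. Over these 4 azurophil genes NTG 2 held 1 count in all.

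**Figure D3:**
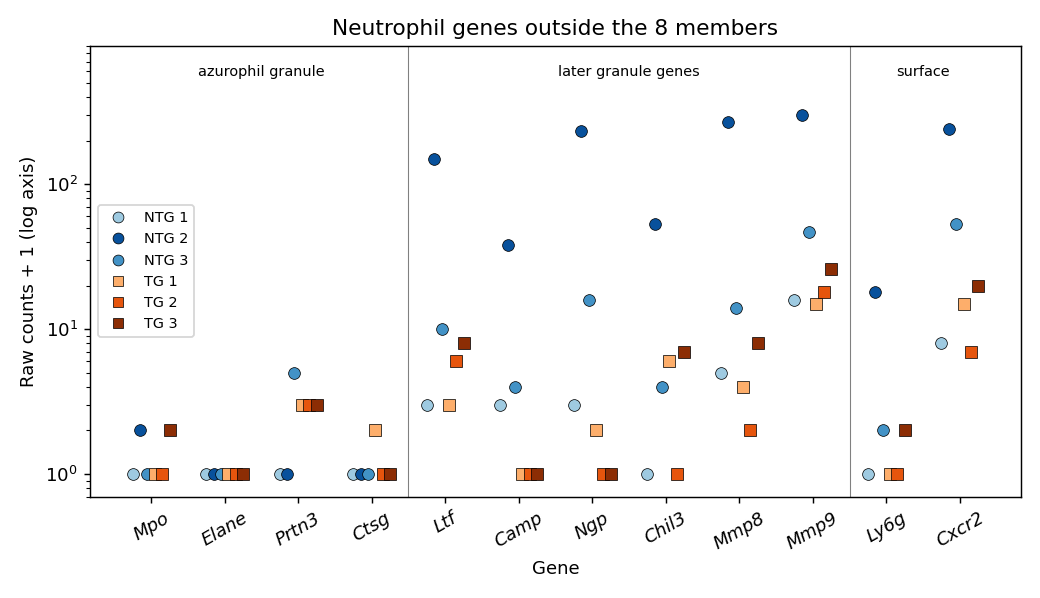
Raw counts plus 1 (log axis) of 12 neutrophil genes outside the 8 members in each library, grouped as azurophil granule, later granule and surface genes. The 4 azurophil genes stay at 4 counts or fewer everywhere, while NTG 2 has 37 to 300 counts for the later granule genes.

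Of the 14 granule genes listed, 5 passed the low-count filter. All 5 had a negative fold change, 2 of them at an unadjusted p under 0.05, and the median was -0.74. With 1 library left out, 5 to 7 were tested and all were lower. The number at that threshold ran from 1 (without NTG 2) to 6 (without the library labelled NTG 1), and the median from -1.22 (without TG 2) to -0.56 (without NTG 2). The genes added to the 5 had at most 0.432 CPM in any TG library, under the filter's cutoff. They could pass only through NTG libraries, so their being lower was fixed by the filter and nothing is read from it. Anxa1, a resolution mediator abundant in neutrophils and macrophages, had -0.996 (SE 0.26), and Mmp9, the gelatinase of tertiary granules, -2.48 (SE 0.99). Mmp9 had 1.02, 15.9 and 2.66 CPM in NTG and 1.01, 0.967 and 1.54 in TG, and its fold change was -0.66 without NTG 2. Of 23 surface and identity genes that were no members, 9 passed the filter, of which 8 were lower and 1 higher, 4 and 1 of them at an unadjusted p under 0.05. The higher one was G0s2, an inhibitor of lipolysis, at 0.58 (SE 0.21). Without NTG 2 the list had 6 lower and 3 higher, 1 and 0 at that threshold, and its median went from -1.48 to -0.23. Cxcr2, the receptor for neutrophil chemokines, had 0.478, 12.7 and 3.01 CPM in NTG and 1.01, 0.341 and 1.17 in TG (log2 fold change -2.70, SE 1.10, and -1.09 without NTG 2). Clec4d and Trem1, activating receptors of myeloid cells, had -1.96 and -2.03, and Clec4d had -1.04 without NTG 2. Counting also the genes below the filter, 10 of 11 granule genes and 17 of 19 surface genes with at least 10 counts were highest in NTG 2, members left out, against 25.7% of all such genes.

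The chemoattractants that recruit neutrophils through Cxcr2 had another pattern across the libraries. Of 4 tested, 1 was lower and 3 higher, 0 of them at an unadjusted p under 0.05, with a median of 1.24. Cxcl1 had 2.12, 7.12 and 3.01 CPM in NTG and 4.83, 3.58 and 22.2 in TG, and Cxcl2 0.887, 2.44 and 1.45 against 2.38, 1.42 and 7.16. TG 3 was the highest library and NTG 2 the next for both genes. Without TG 3 the list's median was -0.70. TG 3 was also the library with lung and airway transcripts, at 86 of 90 counts of Sftpc and 80 of 86 of Scgb1a1, genes singled out after their values were seen. The summed level of the lung list was 14.01 CPM in TG 3 and 0.505 to 1.17 in the other 5, and the part of such tissue in the TG 3 values of the members was not tested.

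In the G-CSF axis and the regulators of granulocyte genes, all 10 genes tested were lower, 4 of them at an unadjusted p under 0.05, with a median of -0.37. Csf3, the ligand of Csf3r, had 0, 5 and 0 counts in NTG and 0, 0 and 6 in TG and was not tested. Csf2rb2, a beta receptor subunit of interleukin-3, had 8.94, 51.1 and 24.5 CPM in NTG and 4.98, 8.30 and 6.98 in TG, a log2 fold change of -2.06 (SE 0.60) that was -1.31 without NTG 2. Every TG library lay under every NTG library for it. Cebpd, a C/EBP factor of the acute phase and of granulocytes, had -0.78 (SE 0.22), with 124, 226 and 173 CPM against 86.8, 119 and 97.8. Without NTG 2 the list had 6 lower and 4 higher, with a median of -0.12.

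Other S100 genes did not share the size of the S100a8 and S100a9 differences over all libraries. That size rested largely on NTG 2, without which S100a8 had -0.72 and S100a9 -1.22, against a median of -0.13 for the list below. The list tested held 8 genes, 1 of them (S100pbp, -0.27) for an S100-binding protein. Of the 8, 6 were lower and 2 higher, 3 and 0 at an unadjusted p under 0.05, with a median of -0.20 that ran from -0.37 to -0.13 with 1 library left out. S100a6 and S100a11, which are expressed in fibroblasts and other stromal cells, had -0.81 (SE 0.25) and -0.67 (SE 0.19). Of 13 genes of alarmin signalling, which were receptors and adaptors plus the nuclear alarmin Hmgb1 (-0.11), 11 were lower and 2 higher, 1 at an unadjusted p under 0.05, with a median of -0.11. That gene was Cd14, the coreceptor of Toll-like receptor 4, at 68.3, 81.9 and 52.4 CPM in NTG and 25.9, 46.5 and 30.3 in TG (-0.98, SE 0.25). Tlr2 had -0.63 (SE 0.33).

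Around Il1b and Il1r2, 4 other ligands and antagonists of the interleukin-1 family were tested, 3 lower and 1 higher, with a median of -0.18 that was 0.18 without NTG 2 (1 lower and 3 higher), 0.05 without TG 2 and -0.87 without TG 3. Il33, an alarmin of stromal nuclei, had 9.76, 38.2 and 10.2 CPM in NTG and 5.41, 5.003 and 9.63 in TG (-1.54, SE 0.60, and -0.58 without NTG 2). NTG 2 again stood apart, and every TG library lay under every NTG library, by a narrow margin for TG 3. Il18bp, the interleukin-18 binding protein, had 0.07 (SE 0.14). Of 7 receptors, 4 were lower and 3 higher, 2 at an unadjusted p under 0.05 and both lower, namely Il1rap (-0.91, SE 0.30) and Il1r1 (-0.69, SE 0.26), the signalling receptor pair of Il1b. Without NTG 2 these were -0.53 and -0.42, and the receptors had 3 lower and 4 higher, 0 at that threshold, with a median that went from -0.23 to 0.05. Without TG 3 the number at that threshold was also 0, and the median was -0.48. Of 10 inflammasome genes, 8 were lower and 2 higher, 2 and 0 at that threshold, the 2 becoming 1 with any library but the one labelled NTG 1 left out. P2rx7, the ATP-gated channel upstream of the inflammasome, had -0.77 (SE 0.21) and Nek7, a partner of NLRP3, -0.31 (SE 0.12). Without NTG 2 the inflammasome median went from -0.25 to 0.09, with 4 lower and 6 higher.

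Beside Hp and Lcn2, a list of 10 genes of the acute phase response was tested, which held its inducer Il6 (-1.88, but -0.05 without NTG 2 and -3.11 without TG 3) and the cytokine receptors Il6ra (-0.26) and Osmr (-0.89) as well as acute phase proteins. All 10 were lower, 6 at an unadjusted p under 0.05, with a median of -0.87, and DESeq2 called 5 lower, Osmr among both. Serpina3n, a secreted serine protease inhibitor, had 135, 1474 and 481 CPM in NTG and 45.7, 56.3 and 40.1 in TG, a log2 fold change of -3.88 (SE 0.83). Its lowest NTG library, the one labelled NTG 1, was above every TG library, and without NTG 2 the fold change was -2.70. Itih4 had 6.21, 10.7 and 11.7 CPM in NTG and 4.04, 3.64 and 3.33 in TG (-1.38, SE 0.26, and -1.30 without NTG 2). The acute phase list without NTG 2 had 8 lower and 2 higher, with a median of -0.49. Of 7 partners of haptoglobin and lipocalin 2, which act in the uptake of these carriers or in the handling of haem, iron or siderophores, 3 were lower and 4 higher, with a median of 0.09 that ran from -0.10 to 0.15 with 1 library left out. Lrp1, an uptake receptor, had -0.66 (SE 0.28) and Bdh2, an enzyme of the mammalian siderophore pathway, -0.78 (SE 0.44).

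Markers of other blood and tissue cells moved in part with the members. All 6 erythroid genes tested were lower, 6 at an unadjusted p under 0.05, with a median of -1.13, and 5 were called by DESeq2. Their summed level was 1316, 2256 and 1858 CPM in NTG and 910, 764 and 865 in TG, so it separated the groups, and the median was -0.94 without NTG 2. Hbb-bs, a beta globin gene, had -1.20 (SE 0.19) and Alas2, the erythroid haem synthesis enzyme, -1.55 (SE 0.33). Among 16 monocyte and macrophage markers 13 were lower and 3 higher, 4 and 0 at an unadjusted p under 0.05, with a median of -0.42 that was -0.04 without NTG 2, where 8 were lower and 8 higher. Without TG 1 the numbers at that threshold were 0 lower and 1 higher. Their summed level was 652, 1236 and 772 CPM in NTG and 552, 674 and 760 in TG. Csf1r had -0.59 (SE 0.21), Mrc1 -0.78 (SE 0.28), Cd68 -0.76 (SE 0.28) and Adgre1 -0.61 (SE 0.31), and Csf1r and Cd68 had -0.32 and -0.44 without NTG 2. The 3 higher ones were Ly6c2, Plac8 and Timd4, at 0.77, 0.57 and 0.55. The summed level of the 8 members was 21.4, 349 and 59.8 CPM in NTG and 23.6, 14.4 and 34.4 in TG. The part of blood and of macrophages in the members' values was not tested.

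Cardiomyocyte markers went the other way, with all 8 tested higher, 2 at an unadjusted p under 0.05, and a median of 0.43. All 8 were higher with any 1 library left out, with a median from 0.25 (without NTG 2) to 0.65 (without the library labelled NTG 1). The number at that threshold then ran from 0 (without NTG 3, TG 1 or TG 3) to 5 (without the library labelled NTG 1). Their sum was lowest in NTG 2, at 20490 CPM against 27680 to 39690 in the other 5 libraries. Myl2 had 0.59 (SE 0.21), Tnni3 0.61 (SE 0.23) and Myh6 0.56 (SE 0.28). Of 5 platelet genes 2 were lower and 3 higher (median 0.08), with Pf4 at 0.08 (SE 0.14), Itgb3 at -0.36 and Gp1ba at 0.32. Of 6 lymphocyte genes 1 was lower and 5 higher, 1 at an unadjusted p under 0.05, namely Cd8a at 1.77 (SE 0.69), and Nkg7 had 1.48 (SE 0.82). The number higher at that threshold was 0 without NTG 2, NTG 3, TG 2 or TG 3, 2 without the library labelled NTG 1 and 3 without TG 1. Of 4 mast cell and basophil genes 1 was lower and 3 higher, with Cma1 at 0.84 and Tpsb2 at -0.66. The 2 adipocyte genes tested were Fabp4 at -0.10 and Cfd at 1.67. TG 3 held 59.4% of the Cfd counts, and without TG 3 the list's median went from 0.78 to 0.0012. Adipoq had 0 to 2 counts in 5 libraries and 16 in TG 3. With 1 library left out, the medians of the platelet, lymphocyte and mast cell lists took both signs, from -0.23 to 0.09, from -0.01 to 1.04 and from -0.23 to 0.67. No lung gene passed the filter.

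**Figure D4:**
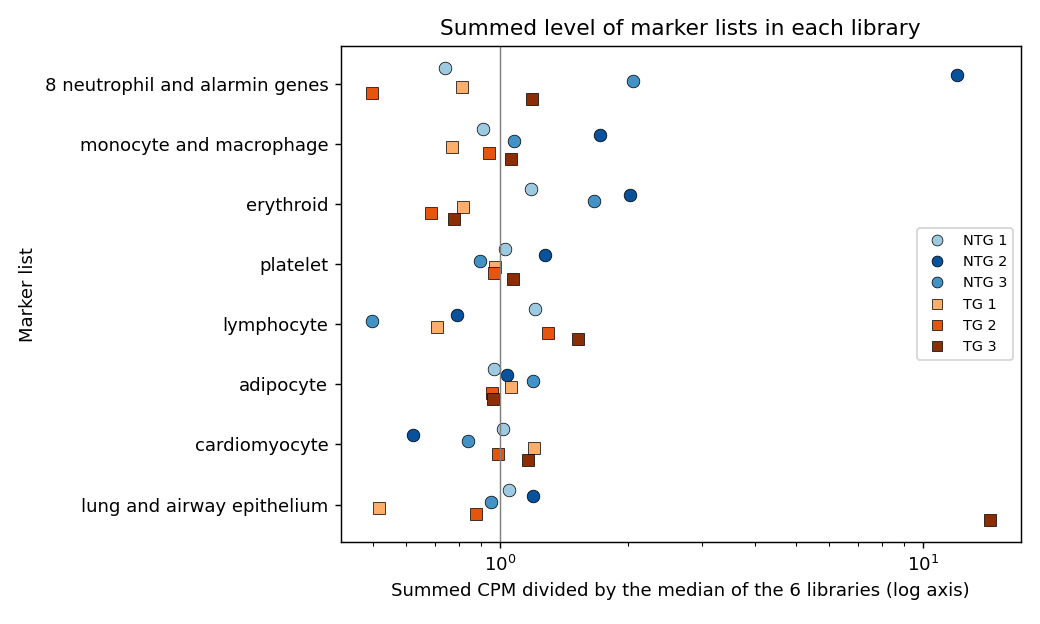
Summed CPM of the 8 members and of selected marker lists in each library, divided by the median of the 6 libraries (log axis), with circles for NTG and squares for TG. NTG 2 stands at 12.0 times the median for the 8 members, at 2.03 for erythroid and 1.72 for monocyte and macrophage genes and at 0.621 for cardiomyocyte genes, and TG 3 at 14.4 for lung and airway genes. Among the lists not drawn, NTG 2 stood from 0.925 (mast cells and basophils) to 4.94 (acute phase). The neutrophil surface and identity list, Csf3r and Il1r2 included, had 2.93 there.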

How the data were processed

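RNA was measured in 6 libraries of mouse left ventricle, 3 TG and 3 NTG, all after AB. The authors deposited raw read counts per gene, 1 column per heart. Per their methods, poly-A libraries were sequenced, reads were cleaned and mapped (HISAT2 is named in the submitters' processing notes), further transcripts were predicted with StringTie, and reads were counted with featureCounts. The notes name a human genome build, whereas 98.3% of the gene identifiers found in GENCODE M21 had its mouse GRCm38 coordinates. The strand setting and the handling of multi-mapping reads are not given in the sources used here. The antisense genes overlapping Il1b and Il1r2 had 9 and 4 counts in all, and Gm37347, on the strand of Il1r2 and overlapping it, had 14, all in NTG 2, where Il1r2 had 96.

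The group comparison was fitted with edgeR 4.0.16 in R 4.3.3 (TMM, filterByExpr by group, robust glmQLFit and glmQLFTest, Benjamini-Hochberg over 14774 genes). All 8 members passed the filter. Calls needed adjusted p below 0.05 together with an absolute log2 fold change above 0.5, and a prior count of 2 entered log2 CPM. Alternatives were RLE, upper quartile and library size scaling, no filter, at least 10 counts in every library, DESeq2 1.42.0, limma 3.58.1 (voom), a replicate block and each library left out in turn. The fits were tested on simulated data.

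The members and all gene lists were chosen with earlier results of these data known. Lists were written from recalled gene functions, and 3 of their genes were not found under the listed names. Besides the members and Hint2, the genes named were the 2 tested genes of each list with the smallest unadjusted p, listed cell type markers and the 10 genes closest to the members' mean profile. A gene that the rule gave is not reported here. Genes named outside that rule (Elane, Ctsg, Prtn3, Chil3, Mmp8, Padi4, Lyz2, Selplg, Hdc, G0s2, S100pbp, Hmgb1, Il6, Il6ra, Osmr, Gm37347, Ly6c2, Plac8, Timd4, Csf3, Sftpc and Scgb1a1) were chosen after their values were seen. Precision is limited by 3 hearts per group, and the p-values set each group difference against the spread between these libraries. Deviations from the group means correlated at 0.0807, 0.173 and -0.252 between TG and NTG libraries of the same replicate number. Between libraries of unlike number they correlated at -0.253 to 0.167. With 3 libraries per group these values cannot settle whether the replicate numbers mark pairs, and the main fit has no pairing. Columns of sample values left unmatched numbered 0.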

Additional observations from a re-analysis of the deposited data

How the results depend on the processing

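The members called lower numbered 0 under every alternative run. Their median log2 fold change stayed between -2.73 (library size alone) and -2.04 (replicate block) under the scaling, filter and tool alternatives, with Retnlg and Il1r2 missing where at least 10 counts were asked of every library. It ranged from -3.34 to -0.97 with 1 library left out, the highest value being without NTG 2. For S100a8 the log2 fold change was -1.99 with limma-voom and -1.96 with the replicate block. Over all genes, the number called higher and lower in TG was 116 and 116 without a low-count filter, 228 and 355 with DESeq2, and 84 and 147 with the replicate block, none of them members. With 1 library left out it ranged from 0 to 404 higher and from 0 to 432 lower, both highest without the library labelled NTG 1. The cause of these differences was not tested. Of 431 values under alternatives, 398 moved by less than the spread between replicates or, for counts of genes, by no more than 1.5 times. That spread includes NTG 2 and is wide for the members, so S100a8 at -1.96 against -3.20 in the main fit is among the 398. Counts that stayed at 0 are among them too, so the number is no measure of stability for the members. Scaling by library size alone moved the median of all genes from -0.01 to -0.09. Low counts limit Retnlg and Il1r2 most, each with fewer than 10 counts in some libraries.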
